A study of Mus musculus with 8 samples.

Results

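Cardiomyocyte nuclei carrying many transcripts of Ccna2, the gene for cyclin A2, were picked out of droplet-based single-nucleus RNA libraries (10x Genomics) made from the hearts of adult mice. A nucleus was kept with at least 200 genes and under 5% mitochondrial UMIs (unique molecular identifiers, 1 per captured RNA molecule). It was called a cardiomyocyte nucleus with at least 2500 UMIs of which at least 2% came from Ttn, Ryr2 and Trdn, and a Ccna2-high nucleus if it also held at least 5 Ccna2 UMIs. That rule found 367 Ccna2-high nuclei among 6886 cardiomyocyte nuclei, of 37767 nuclei past the first filters and 44839 barcodes in all. They were compared with the 4369 cardiomyocyte nuclei that held 0 Ccna2 UMIs in the same 4 libraries, called Ccna2-zero nuclei here. The nuclei were selected on their Ccna2 counts, so Ccna2 itself is described and not tested, and it was left out of every count and total used in a test.

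The labels name 8 libraries of adult heart, 2 for each combination of sex (female, male) and genotype, where nTg is non-transgenic and Tg carries a Ccna2 transgene described as constitutively expressed (Tg-ccna2). Age beyond adult, strain, the promoter of the transgene and whether hearts were pooled are not given in the sources used here. The UMIs do not separate the transgene's transcripts from those of the mouse gene. The 5 matrices whose number of columns equals their own barcode list were used: 1 labelled nTg female 1, both labelled Tg female and both labelled Tg male. The other 3 hold the same values as a retained matrix and do not match their own barcode lists. The 4 libraries with Ccna2-high nuclei are given below in a fixed order, first the library labelled nTg female 1, second that labelled Tg female 2, then those labelled Tg male 1 and Tg male 2.

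Cyclin A2 binds Cdk2 and Cdk1 and acts in S phase and at entry into mitosis. Adult cardiomyocytes have largely left the cell cycle, and Ccna2 is among the cyclin genes that are silenced in the heart after birth. Its forced expression in cardiomyocytes has been studied as a way to bring them back into the cycle, which makes it of interest which cardiomyocyte nuclei carry the transcript and what else they transcribe.

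The targeted gene did not follow the genotype labels. The library labelled nTg female 1 held 125 Ccna2-high nuclei among 1213 cardiomyocyte nuclei, 10.3% (95% Clopper-Pearson interval 8.65 to 12.2). The library labelled Tg female 1 held 0 of 2048, for which the same interval reaches up to 0.180%. In the library labelled Tg female 2 the rule found 124 of 940, or 13.2% (11.1 to 15.5). Those labelled Tg male 1 and Tg male 2 had 72 of 1350, 5.33% (4.20 to 6.67), and 46 of 1335, 3.45% (2.53 to 4.57). No direction between genotypes or sexes is drawn from these shares, which the rule itself fixed. All intervals cover counting error only.

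Ccna2 was close to all-or-none among cardiomyocyte nuclei. Of the 6886 nuclei, 6410 held 0 Ccna2 UMIs, 95 held 1, 9 held 2 and 5 held 3 or 4. Just inside the rule 12 nuclei held 5 to 9 UMIs and 39 held 10 to 19, after which 226 held 20 to 49, 83 held 50 to 99 and 7 held 100 or more. The threshold therefore fell in the sparse stretch between a large class at 0 or 1 and a class centred on 20 to 49.

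Within the class the 4 libraries were alike. The median was 36 Ccna2 UMIs a nucleus in the library labelled nTg female 1 (highest 100), 38 in Tg female 2 (highest 133), 34 in Tg male 1 (highest 109) and 38 in Tg male 2 (highest 95). The median share of a nucleus's UMIs was 0.449%, 0.575%, 0.386% and 0.417% in that order. Ccna2-high nuclei held 99.3%, 99.5%, 98.8% and 98.6% of all Ccna2 UMIs of the gated nuclei of their libraries. The libraries thus differed in the number of Ccna2-high nuclei more than in the count of each.

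**Figure D1:**
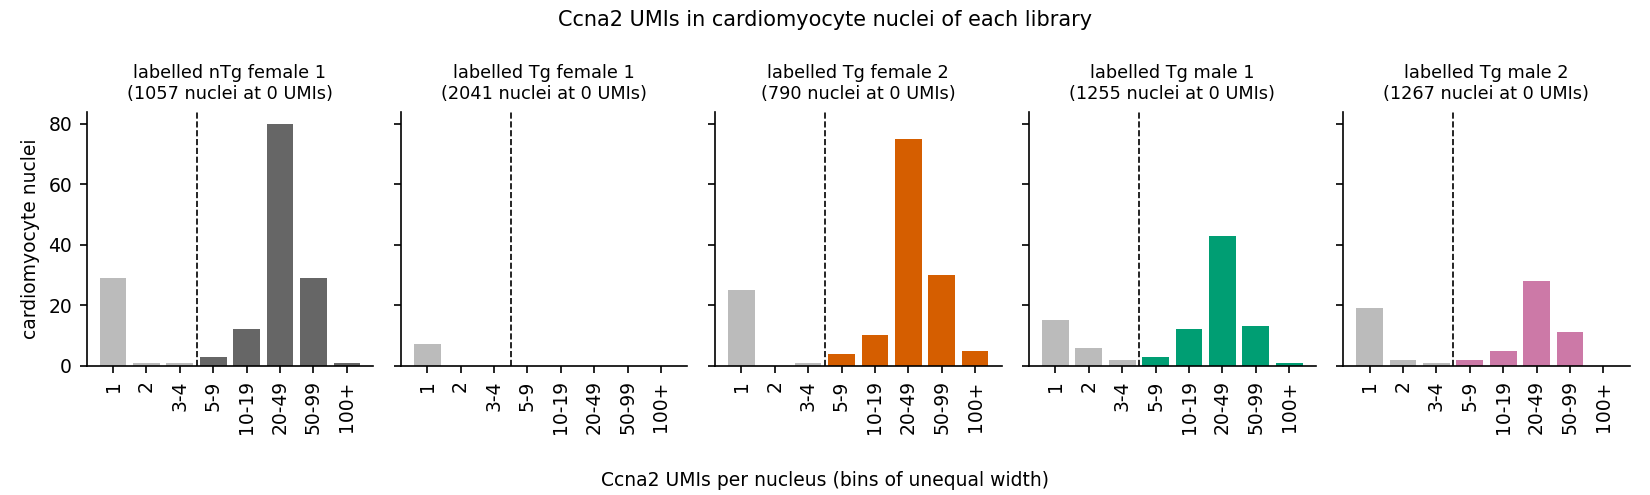
Number of cardiomyocyte nuclei (bars) by Ccna2 UMIs per nucleus, in bins of unequal width, for the 5 retained libraries, with the threshold of 5 UMIs as a dashed line and the nuclei at 0 UMIs given above each panel. In the 4 libraries with Ccna2-high nuclei most of these lie between 20 and 99 UMIs, and the library labelled Tg female 1 has 7 nuclei with 1 UMI and none above.

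Cardiomyocyte markers outside the gate were abundant in both classes. Without Ttn, Ryr2 and Trdn the marker list held 16 genes (such as Myh6, Tnnt2, Actn2 and Pln), all tested with 0 called, and their summed level was 31529 to 38374 CPM (UMIs of a gene scaled to 1e+06 UMIs of the summed nuclei, Ccna2 left out) against 31961 to 38300 CPM in Ccna2-zero nuclei. The gate genes, which the rule used in both classes, are given as a description: Ttn (titin) differed by -0.04 on the log2 scale, Ryr2 (the calcium release channel) by -0.11 and Trdn (triadin) by 0.00. Sex-linked genes followed the library: Xist was at 796 and 731 CPM in Ccna2-high nuclei of both female libraries and at 17.1 and 0 CPM in the male ones, against 791, 690, 19.6 and 0.412 CPM in Ccna2-zero nuclei. Of the 10 pairs of libraries, each shared 7 to 23 barcodes, 3 Ccna2-high nuclei had a barcode found in another library, and 0 barcodes were Ccna2-high in both.

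Depth was slightly higher in the Ccna2-high class. Median UMIs were 8343, 6875.5, 8483.5 and 8753 in the 4 libraries against 7991, 6096.5, 8176 and 8420 in Ccna2-zero nuclei. Doublets called by Scrublet made up 13.6%, 10.5%, 8.33% and 19.6% of Ccna2-high nuclei against 9.46%, 8.99%, 9.48% and 12.9%. Nuclei in clusters led by markers of endothelial cells, fibroblasts, macrophages, pericytes or lymphatic vessels were 49 of 367 (13.4%) against 503 of 4369 (11.5%), and the results below were also computed without these clusters and without called doublets.

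The transcriptomes of Ccna2-high and Ccna2-zero nuclei of one library differed in few genes. UMIs were summed per class and library and tested with edgeR's quasi-likelihood method with the library as a block, so that each library was its own control. Of 12553 genes tested, 28 had a Benjamini-Hochberg adjusted p under 0.05 (0.223%), 14 higher in Ccna2-high nuclei (0.112%) and 14 lower (0.112%), and 794 had an unadjusted p under 0.05. The median log2 fold change over all genes was -0.00, and of 1742 genes with at least 100 CPM, 99.6% lay within 0.5 log2 units of 0. Of the 28 genes, 12 changed by over 5 log2 units and 13 by under 1.5. The block takes up the level of each library. These p-values rest on the spread of the class difference over 4 libraries and on a spread estimated jointly over all genes. They do not measure steadiness over the libraries alone, and a call did not require the same direction in each library. Nothing in the labels says that the 4 libraries come from separate animals.

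The largest differences were in a family of predicted genes that share stretches of sequence, led by Gm10800. Of the 14 genes called higher, 9 had a GENCODE transcript that shared at least 20 words of 20 bases with that of Gm10800, as did 12 of 55429 annotated genes (0.0217%). The other 8 of these 9 shared 27.7 to 41.9% of their words with it, so the transcripts are related and not copies throughout. All 9 members that were tested were called, on chromosomes 2, 9 and 14, and the other 3 (Gm10715, Gm17535 and Gm10720) had too few UMIs to be tested. The family was drawn up after the values were seen. Its tested members averaged 2.49 CPM or less in Ccna2-zero nuclei, so they passed the filter on low counts through the Ccna2-high class. That came close to fixing their calls in advance, and the count is a description only. As background, predicted genes of this kind are known to overlap the AT-rich major satellite, the tandem repeat of mouse pericentromeric heterochromatin, which can give rise to nuclear RNA. No satellite sequence was compared with them here.

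The sequences are shown because they are what ties these genes together: 42 bases, in capitals, were identical in all 9 transcripts and occurred in 10 annotated genes. Each line gives 60 bases of the coding exon, 5′ to 3′, from the GENCODE M21 transcripts on GRCm38. The places are chr2:98667242-98667301 on the minus strand for Gm10800, chr2:98662296-98662355 on the plus strand for Gm10801, chr14:19417246-19417305 on the minus strand for Gm21738, and, all on the plus strand, chr9:3023547-3023606 for Gm10718, chr9:3020155-3020214 for Gm10719 and chr9:3014066-3014125 for Gm10721.
Gm10800: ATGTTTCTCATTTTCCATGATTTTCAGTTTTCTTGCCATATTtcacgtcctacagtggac
Gm10801: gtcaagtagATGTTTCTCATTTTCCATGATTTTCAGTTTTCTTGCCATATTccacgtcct
Gm21738: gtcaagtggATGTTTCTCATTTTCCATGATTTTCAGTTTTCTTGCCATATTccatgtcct
Gm10718: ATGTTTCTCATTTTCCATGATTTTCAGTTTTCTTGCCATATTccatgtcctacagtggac
Gm10719: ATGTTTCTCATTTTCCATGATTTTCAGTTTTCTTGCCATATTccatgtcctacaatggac
Gm10721: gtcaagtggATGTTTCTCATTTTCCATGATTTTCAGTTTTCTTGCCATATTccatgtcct
The windows differ by a few bases around the shared run, so which gene a UMI from such a stretch came from is uncertain, and the genes are not independent of each other.

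Gm10800 (chr2:98666547-98667301, minus strand) was the most significant gene. It stood at 1732, 1627, 1130.4 and 1488 CPM in Ccna2-high nuclei and at 1.60, 5.66, 0.866 and 1.81 CPM in Ccna2-zero nuclei. The difference was 9.46 on the log2 scale (standard error 0.11, edgeR adjusted p 5.84e-46), and each library's Ccna2-high value lay far above all 4 Ccna2-zero values. In the library labelled Tg female 1, which has no Ccna2-high nuclei, Ccna2-zero nuclei held 0.456 CPM.

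Gm10801 (chr2:98662237-98664083, plus strand), its neighbour, stood at 359, 308, 535 and 521 CPM against 0.749, 0.183, 0.347 and 0.659 CPM (log2 difference 9.71, standard error 0.15, edgeR adjusted p 1.07e-40). Gm21738 on chromosome 14 reached 129.7, 115, 99.9 and 128 CPM against 1.71, 1.28, 1.82 and 0.577 CPM, a log2 difference of 6.44. Of the members on chromosome 9, Gm10718 differed by 7.13, Gm10719 by 7.19 and Gm10721 by 8.03 on the log2 scale, and the least abundant, Gm10722, Gm10717 and Gm11168, by 6.20, 7.35 and 5.82. The values of the chromosome 9 members rested on few UMIs in Ccna2-zero nuclei, 2 to 19 a gene over 4 libraries. Against Ccna2-zero nuclei matched one to one on depth, the log2 differences of Gm10801, Gm21738, Gm10719 and Gm10721 were smaller, at 9.08, 5.39, 5.37 and 6.45, and all 4 kept their call.

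Csmd3, on chromosome 15 (chr15:47580637-48792063, minus strand), rose as well. Its transcripts share none of those words, and its introns, which nuclear UMIs also cover, were not compared. It encodes a large transmembrane protein with CUB and sushi domains that is best known from the nervous system. Its level was 274, 489, 402 and 379 CPM in Ccna2-high nuclei against 2.67, 2.19, 3.29 and 2.55 CPM, a log2 difference of 7.09 (standard error 0.12, edgeR adjusted p 1.62e-38). The Ccna2-zero level was close to that of nuclei under 0.5% gate genes in these libraries, 2.75 to 4.92 CPM, and Ccna2-zero nuclei of the library labelled Tg female 1 held 3.58 CPM. All 4 Ccna2-high values lay above all of these. Csmd3 averaged 2.68 CPM in Ccna2-zero nuclei, so it too passed the filter on low counts through the Ccna2-high class. Its call was thus also close to fixed in advance, and its values are a description.

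Gm33838, a long intergenic noncoding RNA on chromosome 9 (chr9:35301722-35307599, minus strand), was rare outside the Ccna2-high class. It stood at 59.1, 45.5, 44.2 and 46.0 CPM against 0.107, 0, 0 and 0.165 CPM, or 167 UMIs against 3. The ratio of the pooled levels was 641 with a 95% counting interval of 215 to 3138, and the edgeR adjusted p was 3.38e-21. Gm33838 also passed the filter on low counts through the Ccna2-high class. That came close to fixing its call in advance, and these values are a description. Genes around these loci were also counted, against 0.223% called of all tested genes. Within 1000000 bases of Ccna2 on chromosome 3, 0 of 18 tested genes were called (edgeR, log2 differences -0.39 to 0.54), and around Gm33838 and Gm21738 0 of 12 and 0 of 11. The overall share also gives a count of 0 for so few genes, so these counts set the loci apart from no others. Around Gm10718, 5 of 8 were called, and around Gm10801 1 of 1 (Gm10800). All of these are of the Gm10800 family, whose calls were close to fixed in advance. No gene within that distance of Csmd3 had enough UMIs to be tested. These neighbours were looked up after the values were seen.

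**Figure D2:**
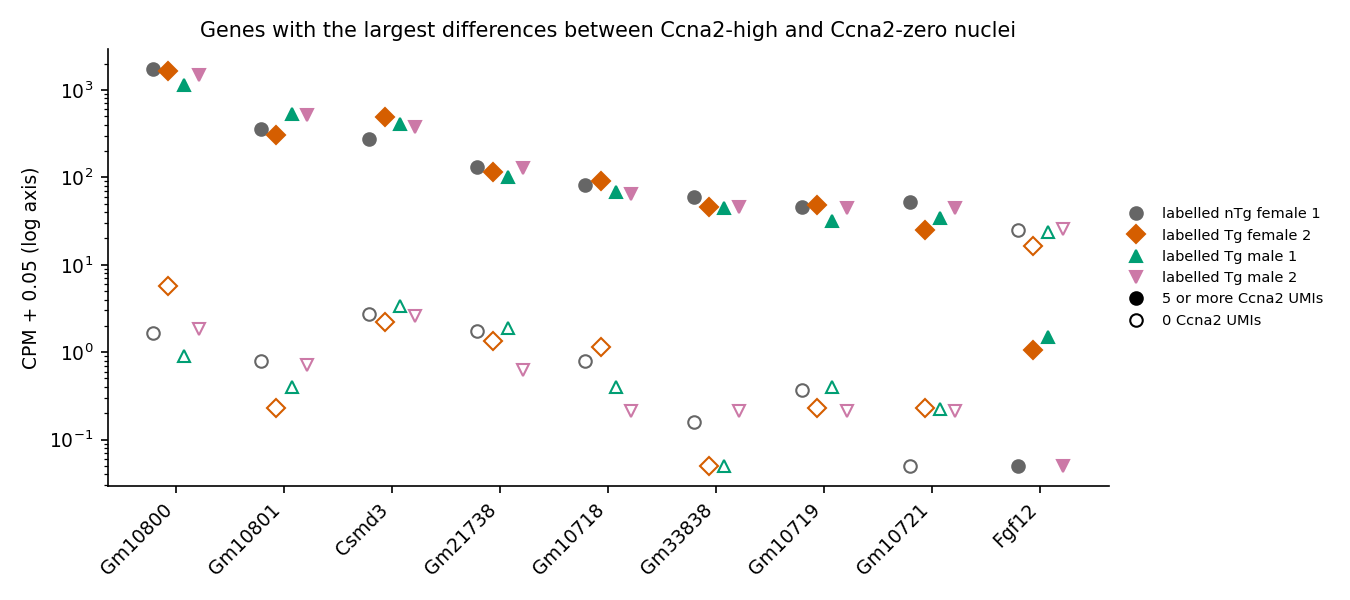
Level (CPM + 0.05, log axis) of the 9 named genes with the largest differences, in Ccna2-high (filled) and Ccna2-zero nuclei (open), with 1 point a library. The filled points lie above the open ones in each gene but Fgf12, which is described below and lies the other way; for Gm10800 at 1130.4 to 1732 CPM against 0.866 to 5.66 CPM.

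The same split appeared nucleus by nucleus. Gm10800 had a UMI in 339 of 367 Ccna2-high nuclei (92.4%) and in 66 of 4369 Ccna2-zero nuclei (1.51%), and after thinning each nucleus to 2500 UMIs in 80.7% and 0.412%. Csmd3 had one in 290 (79.0%) and 102 (2.33%), or 50.4% and 0.732% after thinning, and Gm33838 in 108 (29.4%) and 2 (0.0458%). At least 1 of Gm10800, Gm10801 and Csmd3 was seen in 358 Ccna2-high nuclei (97.5%) and in 179 Ccna2-zero nuclei (4.10%). As a background, nuclei under 0.5% gate genes with 0 Ccna2 UMIs had Gm10800 in 1.30% and Csmd3 in 1.32%, at a median of 3413 UMIs.

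Read the other way, high Gm10800 counts were nearly all in Ccna2-high nuclei. Of 273 cardiomyocyte nuclei with 5 or more Gm10800 UMIs, 268 were Ccna2-high, 4 held 1 to 4 Ccna2 UMIs and 1 held 0. All 192 nuclei with 10 or more were Ccna2-high. The 102 nuclei with 1 to 4 Ccna2 UMIs in these 4 libraries resembled the Ccna2-zero class more: 10 of them had Gm10800 (9.80%) and 4 had Csmd3 (3.92%).

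Among Ccna2-high nuclei Gm10800 and Csmd3 were higher in those with more Ccna2, although the relation between single nuclei was weak. Spearman's rho with Ccna2, both as a share of UMIs, was 0.20 to 0.32 for Gm10800 and 0.14 to 0.38 for Csmd3 over the 46 to 125 nuclei of each library, a description over sparse counts that share their totals. Nuclei were split at the median Ccna2 share of their library, and 5715 genes were tested with edgeR in the same blocked way, of which 7 were called (0.122%) and 322 had an unadjusted p under 0.05. Gm10800 was at 2281, 2014, 1393 and 1923 CPM in the nuclei with more Ccna2 and at 1347, 1337, 919 and 1259 CPM in those with less, a log2 difference of 0.66 (standard error 0.08, edgeR adjusted p 2.09e-06). Csmd3 was at 351, 597, 567 and 600.3 CPM against 219, 409, 270.4 and 263 CPM, a difference of 0.85 (0.12, edgeR adjusted p 2.23e-05). For both genes every library moved the same way, although the highest value with less Ccna2 exceeded the lowest with more for Csmd3.

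Gm10801 rose by 0.60 and Gm21738 by 0.78 on the log2 scale with more Ccna2. Agbl4, a cytosolic carboxypeptidase of the tubulin-modifying family, rose by 1.85 (edgeR adjusted p 0.0014) and 1500004A13Rik by 0.64 (0.045), and Maml2, a coactivator of Notch signalling, fell by 1.17 (0.0299). The nuclei with more Ccna2 per UMI were shallower, with medians of 7004.5, 5833, 7755 and 7288 UMIs against 9744, 8707.5, 9723 and 12803, and the part of this gap in the calls was not tested. Without the library block 0 genes were called, 163 with an unadjusted p under 0.05, and without the library labelled Tg male 1 2 were, Gm10800 and Csmd3. Without called doublets Gm10801 was no longer among the called genes. Nor were Gm21738, 1500004A13Rik and Maml2 (edgeR adjusted p 0.0682, 0.282 and 0.615), while Agbl4, Csmd3 and Gm10800 kept their call.

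The genes lower in Ccna2-high nuclei changed far less, with 1 exception. Kcnd2, which encodes the Kv4.2 subunit of the transient outward potassium current, had the most UMIs. It stood at 1727, 1201, 1756 and 1327 CPM in Ccna2-high nuclei and at 2221, 1931, 1991 and 1652 CPM in Ccna2-zero nuclei, and fell by 0.39 on the log2 scale (standard error 0.05, edgeR adjusted p 8.79e-07). The value was lower within all 4 libraries, while the groups overlapped across libraries. It had a UMI in 91.0% of Ccna2-high and 92.2% of Ccna2-zero nuclei, so it was lowered slightly in level and not missing.

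Kcnip4, which encodes a KChIP protein that binds Kv4 channels, was at 58.2, 71.8, 85.6 and 149 CPM against 78.0, 111, 190.1 and 210.3 CPM and fell by 0.67 (standard error 0.10, edgeR adjusted p 3.93e-05). Thsd7a, a thrombospondin-domain membrane protein, was at 55.6, 28.3, 34.3 and 82.3 CPM against 111, 51.9, 87.2 and 131 CPM and fell by 0.96 (0.12, edgeR adjusted p 8.79e-07). Both were lower in each library, with overlap between libraries. Against depth-matched Ccna2-zero nuclei, which held far fewer UMIs in sum, neither was called. Kcnip4 stood at -0.30 (edgeR adjusted p 0.694) and Thsd7a at -0.68 (0.254), and with a gate of 3% Kcnip4 stood at -0.36 (0.681).

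Smaller or less abundant changes were seen in Egf, the epidermal growth factor precursor (fell by 0.67), Alas2, an enzyme of haem synthesis (-0.61), Galnt17 (-0.59), Rgs6, a regulator of G-protein signalling (-0.33), Epha6, an ephrin receptor (-0.91), and Nkain2 (-0.97). All of these were lower in 4 of 4 libraries. Against depth-matched nuclei none of these 6 was called (edgeR adjusted p 0.240 to 0.984), with Egf at -0.34, Alas2 at -0.37, Rgs6 at -0.30, Epha6 at -0.14, Nkain2 at -0.77 and Galnt17 at -0.58. Matching also cut the Ccna2-zero class, in Tg male 2 from 12137464 to 520429 UMIs, and 8313 genes were tested. A call lost there can therefore reflect fewer counts, and the 2 were not separated. Epha6 also lost its call with members set at 3 or 10 Ccna2 UMIs (adjusted p 0.0797 and 0.0668). Egf stayed called without each library, Alas2 did not without Tg male 1 (adjusted p 0.0766), nor did Rgs6 without nTg female 1 or Tg female 2 (0.148 and 0.0858). Epha6 was lost without nTg female 1, Tg male 1 or Tg male 2 (0.129, 0.295 and 0.184), Nkain2 without Tg female 2 or either male library (0.0524 to 0.128), and Galnt17 without nTg female 1, Tg female 2 or Tg male 2 (0.0622 to 0.0856).

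Slit2, a guidance ligand, fell by 1.13 (edgeR adjusted p 0.0181), lower in 4 of 4 libraries. The size depended on which nuclei entered: -2.42 without clusters led by another cell type (adjusted p 2.87e-07) and -2.43 without called doublets. It was not called without Tg male 1 (-0.81, adjusted p 0.415), without Tg male 2 (adjusted p 0.0885) or with DESeq2 (-1.21, 0.472).

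Fgf12, an intracellular FGF that binds sodium channels, was the exception and showed the largest fall. It stood at 0, 1.01, 1.43 and 0 CPM in Ccna2-high nuclei against 25.2, 16.4, 23.4 and 25.5 CPM, 2 UMIs against 905, and fell by 5.16 on the log2 scale (standard error 0.49, edgeR adjusted p 2.10e-10). The ratio of pooled levels, Ccna2-zero over Ccna2-high, was 39.3 (95% counting interval 10.9 to 325). The 4 values of one class lay below all 4 of the other. Leaving out each library gave -4.49 (without nTg female 1) to -5.80 (without Tg female 2), each called.

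That fall came from few nuclei. Fgf12 had a UMI in 65 of 4369 Ccna2-zero nuclei (1.49%) and in 2 of 367 Ccna2-high nuclei (0.545%, 0.0661 to 1.95), and 71.6% of its Ccna2-zero UMIs lay in 10 nuclei, 271 of them in 1. Of those UMIs 91.7% lay in clusters called conduction-like (led by Nppa, Fgf12 and Cntn2) and atrial-like. In the clustering made without the called genes, described below, these held 8 of 367 Ccna2-high nuclei (2.18%) and 170 of 4369 Ccna2-zero nuclei (3.89%). Most of these 170 held no Fgf12 UMI, since 65 Ccna2-zero nuclei in all had one. A fit without the conduction-like and atrial-like clusters used the first clustering, which kept the called genes. There the 2 clusters held 12 and 0 Ccna2-high and 196 and 12 Ccna2-zero nuclei. In that fit Fgf12 had too few UMIs to be tested, and Slit2 (-0.81, edgeR adjusted p 0.399) and Rgs6 (-0.16, 0.704) were no longer called. The counting interval treats UMIs as independent, which those of 1 nucleus are not.

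Several other lower genes were also spread unevenly. Clusters led by another cell type held 33.7% of the Ccna2-zero UMIs of Slit2, 29.0% of Thsd7a, 22.3% of Nkain2, 47.6% of Reln (an extracellular matrix protein) and 82.3% of Csmd1, which had 10 UMIs in Ccna2-high nuclei. Leaving those clusters out called 31 genes, 25 of them among the 28. Of the genes just given, Slit2, Thsd7a and Nkain2 kept their call, at -2.42, -1.01 and -0.96, and Reln and Csmd1 lost it. Against depth-matched Ccna2-zero nuclei 13 genes were called, 9 higher and 4 lower, with Kcnd2 among the latter. Without the library block 12 were, 11 higher and 1 lower, the 11 being the Gm10800 family, Csmd3 and Gm33838.

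**Figure D3:**
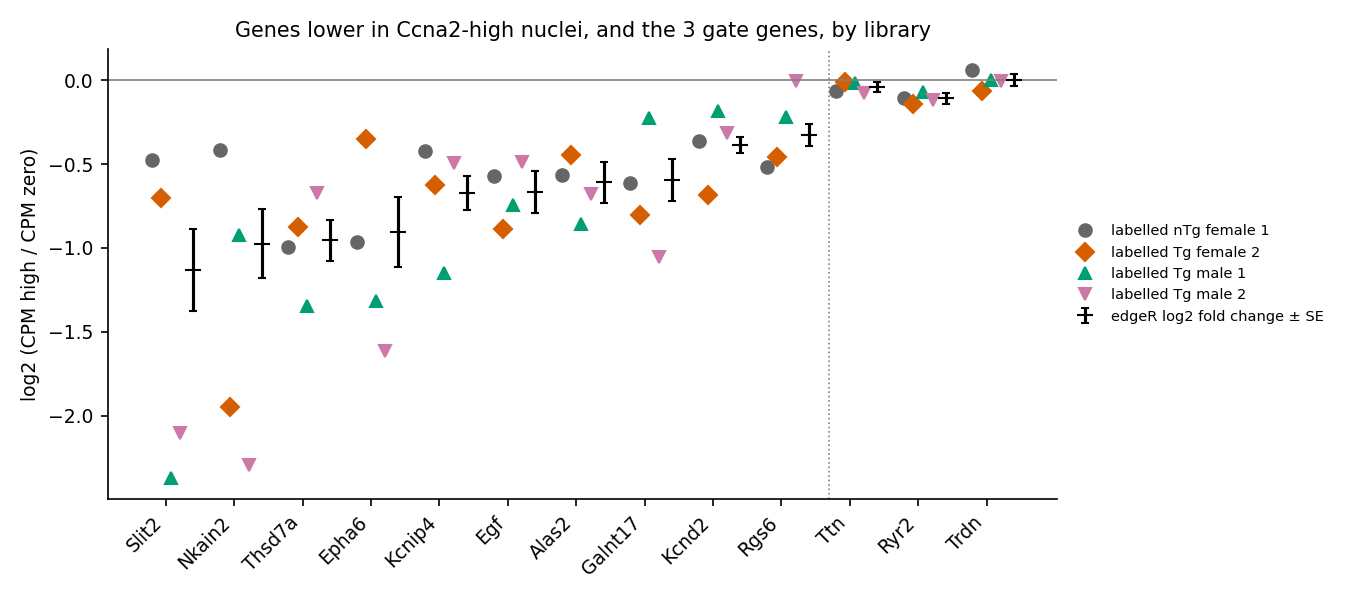
Log2 ratio of the CPM in Ccna2-high over Ccna2-zero nuclei of each library (coloured points) for 10 named lower genes other than Fgf12 and the 3 gate genes, with the edgeR log2 fold change and its standard error in black. The points of the 10 genes lie at or below 0 and spread most for Slit2 and Nkain2, and those of Ttn, Ryr2 and Trdn lie close to 0.

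Another 3 genes called higher did not move one way in the 4 libraries. Cyp2b10, a cytochrome P450, was at 22.9, 7.08, 0 and 15.3 CPM against 1.39, 3.11, 3.03 and 3.87 CPM. Its 41 UMIs in the Ccna2-high class lay in 4 nuclei (1.09%), and 10 nuclei held 81.25% of its Ccna2-zero UMIs, so these values are not levels of a class. Tex22 was higher in 3 libraries and Kazn, a junction and cytoskeleton protein, in 2. A model with an interaction of class and sex, added after seeing the data, called 0 of 12553 genes (edgeR, 585 with an unadjusted p under 0.05, lowest adjusted p 0.149).

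Genes of the cell cycle, on lists without Ccna2, gave no call between the classes. With 0.223% of all tested genes called, a count of 0 is also what that share gives for lists of this size, so these counts set the lists apart from no other genes. Of 20 tested S phase genes 0 were called and the median log2 difference was 0.03, and of 9 tested G2M genes 0 were called with a median of -0.19, against -0.00 over all genes. The S phase list summed to 311 to 380 CPM in Ccna2-high and 322 to 348 CPM in Ccna2-zero nuclei. The G2M list summed to 97.1 to 107 CPM against 104 to 132 CPM and was lower in 4 of 4 libraries (exact paired permutation, two-sided p 0.125, the smallest that 4 libraries can give). This was not particular to G2M genes, as sums of other lists gave the same p in that test. Those of cardiac transcription factors and of Hippo, TEAD and ErbB genes were also lower in 4 of 4. Those of heat shock and early response genes were higher in 4 of 4. Low levels limited what could be seen, as the Ccna2-high class held 522203 to 1133410 UMIs a library and the Ccna2-zero class 5474244 to 12137464. Cdk1, the mitotic kinase, Plk1, Aurkb and Top2a had 0 UMIs in Ccna2-high nuclei, and Mki67 had 1, while Ccna2-zero nuclei held 2, 10, 17, 12 and 39. A count of 0 in 367 nuclei allows a share with a UMI of up to 0.817%, with 3 nuclei taken as the limit and not a Clopper-Pearson interval.

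Among the cyclins and Cdks, 11 of 22 were tested, 0 were called and the median was -0.04. The partner Cdk2 differed by -0.16, the G1 kinases Cdk4 and Cdk6 by 0.13 and -0.17, the D cyclins Ccnd1, Ccnd2 and Ccnd3 by 0.13, 0.18 and -0.04, the E cyclin Ccne2 by 0.17, the Cdk-activating pair Ccnh and Cdk7 by -0.09 and 0.01, the inhibitory kinase Wee1 by -0.32 and the phosphatase Cdc25a by -0.09 on the log2 scale. The mitotic cyclins Ccnb1 and Ccnb2 were too low to test, at 0.357 against 0.614 CPM and 0.699 against 1.14 CPM.

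Of the Cdk inhibitors Cdkn1b (p27) could be tested and differed by 0.10, while Cdkn1a (p21) was at 2.60 against 3.44 CPM. In the retinoblastoma, E2F and DREAM group, which holds cell-cycle genes silent in resting cells, 13 of 22 were tested, 0 were called and the median was 0.04. Rb1 differed by 0.04, Rbl2 (p130) by -0.08, Rbbp4 by 0.20, Lin9, Lin37, Lin52 and Lin54 by -0.17, 0.12, 0.10 and -0.02, E2f3, E2f4, E2f5 and E2f6 by 0.06, 0.35, 0.04 and -0.31, and Tfdp1 and Tfdp2 by -0.44 and -0.10. Foxm1, Mybl2 and Myc had 0 UMIs in Ccna2-high nuclei against 9, 17 and 42 in Ccna2-zero nuclei. Differences for these 13 genes stayed within 0.44 log2 units.

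The anaphase-promoting complex and SCF, the ubiquitin ligases that degrade cyclins, had 16 of 21 genes tested, 0 called and a median of -0.03. Anapc1, Anapc2, Anapc4, Anapc5, Anapc7, Anapc10 and Anapc11 differed by -0.13, 0.06, -0.05, -0.01, 0.28, 0.21 and -0.20. Cdc16, Cdc23, Cdc26 and Cdc27 differed by -0.10, -0.01, 0.23 and -0.06, and the activator Fzr1 (Cdh1) by -0.28. Of the SCF genes Cul1, Skp1a and Skp2 differed by 0.06, -0.36 and -0.40, and the E2 enzyme Ube2s by 0.06. Cytokinesis genes (7 tested) and DNA damage and p53 genes (24 tested, such as Sesn1 at 451 against 464 CPM and Mdm4 at 105 against 103 CPM) had 0 calls.

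The share of nuclei with at least 2 UMIs of 88 S or G2M genes, after thinning to 2500 UMIs, was 28.8%, 25.8%, 30.6% and 26.1% in Ccna2-high nuclei. It was 27.8%, 34.4%, 31.6% and 29.7% in Ccna2-zero nuclei. The means were 27.8% ± 2.27 and 30.9% ± 2.82 (SD, n = 4 libraries), a difference of -3.06 points (exact paired permutation, two-sided p 0.25). The groups overlapped, and the sign turned to 1.79 points without thinning and to 0.577 points against depth-matched nuclei, so no direction was resolved.

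Of the lists for the working heart muscle cell, calcium handling and channels alone held called genes. With 0.223% of all tested genes called, a count of 0 is what that share gives for the other lists here and for the energy lists below. Those counts set these lists apart from no other genes. Sarcomere and Z-disc genes had 32 tested, 0 called and a median of 0.06, with Myh6 at 7553 against 7193 CPM and Tnnt2 at 4235 against 4488 CPM. Calcium handling and channel genes had 28 tested and 2 called lower (Kcnd2 and Fgf12), against 0.112% of all genes, and a median of -0.02, with the L-type channel gene Cacna1c at 6158 against 6564 CPM and the exchanger gene Slc8a1 at 5234 against 4964 CPM. Fetal and wall-stress genes had 16 tested and 0 called with a median of -0.11, led by Myh7 at 1227 against 1173 CPM and Xirp2 at 411 against 438 CPM.

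Among the energy genes, fatty acid oxidation had 27 tested, 0 called and a median of 0.02 (Cd36, the fatty acid transporter, at 1583 against 1648 CPM), glycolysis 28, 0 and -0.02 (Hk2 at 482 against 484 CPM), and oxidative phosphorylation 34, 0 and 0.09, with 29 of 34 differences above 0 (Slc25a4 at 596 against 554 CPM, Atp5a1 at 346 against 329 CPM). Against the median of -0.00 over all genes, the last of these was shifted by under 0.1 log2 units. Heat shock (16 tested, 14 above 0, median 0.14) and early response genes (14, 13, 0.14) had larger medians and 0 calls. Clock and glucocorticoid (19 tested, 8 above 0, median -0.01), Hippo, TEAD and ErbB (22, 6, -0.06), cardiac transcription factor (25, 9, -0.08) and nuclear long noncoding RNA genes (7, 4, 0.04) also had 0 calls each.

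Markers of other cell types were low in both classes, and those called were Slit2 and Reln. Summed levels in Ccna2-high and Ccna2-zero nuclei were 1138 to 1349 against 1099 to 1432 CPM for 12 fibroblast markers, 201 to 463 against 242 to 429 CPM for 12 endothelial markers, 320 to 352 against 281 to 361 CPM for 8 pericyte markers and 95.6 to 176 against 164 to 229 CPM for 9 macrophage markers. The 10 atrial markers summed to 75.6 to 159 against 121 to 202 CPM with 0 of 4 tested genes called (median -0.69), of 5 tested conduction markers 1 was called lower (Slit2), and of 3 lymphatic markers 1 (Reln, at 3.18 against 10.3 CPM), against 0.112% of all genes. Both calls were lost under alternatives, Slit2 without the conduction-like and atrial-like clusters and Reln without clusters led by another cell type. In bulk sums like these, fewer nuclei of a type and less RNA per nucleus cannot be told apart.

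**Figure D4:**
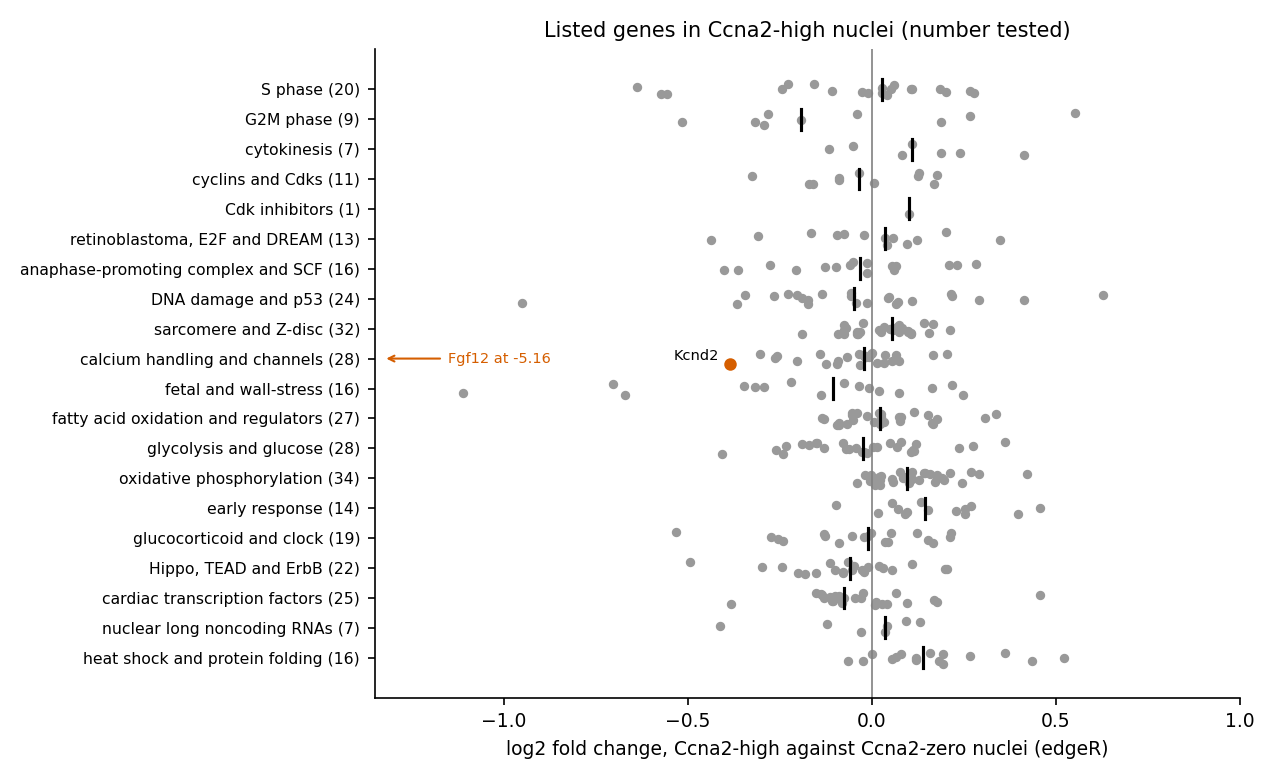
Log2 difference between Ccna2-high and Ccna2-zero nuclei of every tested gene (points) in each gene list other than the sex-linked and cell type marker lists, with the median of each list as a black bar and called genes in orange. The medians of the lists shown lie between -0.19 and 0.14, and the called genes among them are Kcnd2 at -0.39 and Fgf12, whose -5.16 is off the axis and shown by an arrow.

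Which cardiomyocyte states carried Ccna2 was asked by clustering the gated nuclei. With Ccna2, sex-linked and mitochondrial genes left out, 214 of the 367 Ccna2-high nuclei fell into 1 cluster of 215, a mean of 58.5% of Ccna2-high against 0% of Ccna2-zero nuclei. That cluster was made by the genes above, since its Ccna2-high nuclei held a median of 15 Gm10800 UMIs against 3 in the 104 Ccna2-high nuclei of other cardiomyocyte clusters. It is no test of a state, and the nuclei were therefore clustered again without every gene called in either comparison.

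In that clustering, added after seeing the data, 10 of 12 clusters held Ccna2-high nuclei. The largest cluster, led by the noncoding genes Rian and Mirg, held 23.4% ± 4.54 of Ccna2-high and 28.3% ± 1.79 of Ccna2-zero nuclei (SD, n = 4 libraries). A cluster led by Ptgds and Nppb held 23.8% ± 3.12 and 21.3% ± 0.793. These shares overlapped between classes (exact paired permutation, two-sided p 0.25 for each).

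A cluster led by Rp1, Fgf14 and Epha6 held 12.8%, 9.68%, 15.3% and 10.9% of Ccna2-high nuclei against 19.5%, 17.5%, 17.2% and 15.2%, lower in 4 of 4 libraries. The cluster called conduction-like held 1.60%, 3.23%, 2.78% and 0% against 2.65%, 5.32%, 4.46% and 2.53%, and the atrial-like cluster held 12 Ccna2-zero and 0 Ccna2-high nuclei. At a resolution of 1, a cluster led by Fgf12 with 7 conduction markers raised held 1 Ccna2-high and 35 Ccna2-zero nuclei. A separate one led by Nppa held 21 and 233, so the name conduction-like need not hold for every nucleus of the cluster. A small cluster led by macrophage genes was higher in 4 of 4, at 1.89% against 1.32% on average, and one led by lymphatic genes held 0% and 0.218%. For the Rp1-led, conduction-like, macrophage-led and lymphatic-led clusters the exact paired permutation gave p 0.125, the smallest possible, and 0.300 after adjustment over 12 clusters, so none of them passed.

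The Gm10800 transcript accompanied Ccna2 in each of these states. Gm10800 had a UMI in 92.3%, 92.9% and 93.2% of Ccna2-high nuclei of the 3 largest clusters, and in 1.47%, 1.08% and 1.46% of their Ccna2-zero nuclei. In the 8 Ccna2-high nuclei of the cluster called conduction-like it was present in all 8, and Csmd3 in 4. Clusters led by endothelial and fibroblast genes, in which most nuclei were called doublets, showed it in 17 of 20 and 14 of 17 Ccna2-high nuclei. Gm10800 was thus seen in every cluster with 5 or more Ccna2-high nuclei.

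**Figure D5:**
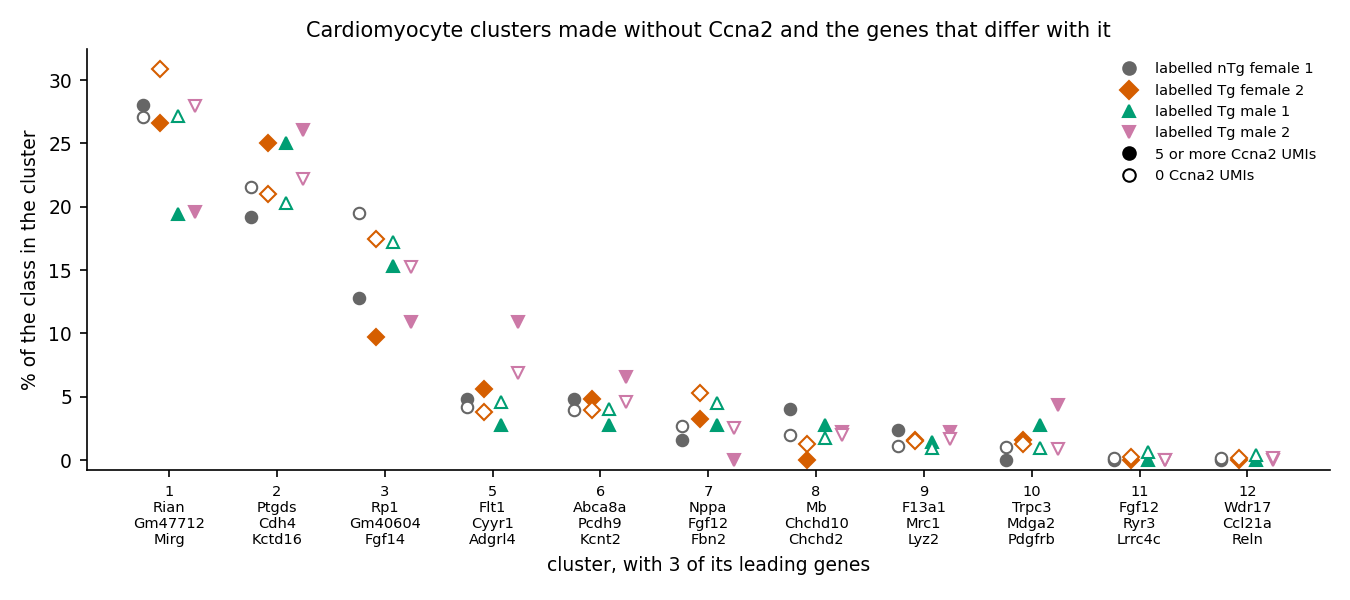
Share of Ccna2-high and of Ccna2-zero nuclei (filled and open points, percent of the class, 1 point a library) in 11 of the 12 clusters made without the called genes, with 3 of the leading genes of each. The points of both classes overlap in most clusters, with the Rp1 cluster at 9.68 to 15.3% against 15.2 to 19.5%.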

How the data were processed

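The authors deposited UMI counts per gene and barcode with no normalization, made with Cell Ranger 7.0.0 per the file headers, on mm10 per the submitters' processing notes. Gene places are from GENCODE M21 (GRCm38). The 5 used matrices held 25045200 to 38593700 UMIs each. Counts were summed per class and library and tested with edgeR 4.0.16 (TMM, filterByExpr, quasi-likelihood, library as block, since both classes share a library). Alternatives included DESeq2 1.42.0. Clusters were made with scanpy 1.11.5 (2000 variable genes, 30 components, 15 neighbours, resolution 0.5). Scrublet used an expected rate of 6%, and the top 6% of scores where it called under 0.5%, in Tg female 2. Named genes were the gate genes, the 12 highest and 12 lowest called genes with 20 CPM and 1 direction in all libraries, the cell-cycle lists, and per other list the called and 2 most abundant members. Other called genes were named after their values were seen. Members and lists were chosen with earlier results of these data known. Tested on simulated data for this comparison of 12553 genes, the method called 87.4% of 4-fold and 64.8% of 2-fold changes, and 3.82% of calls were of unchanged genes. Some genes, and 1 cluster, are not reported here.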

Additional observations from a re-analysis of the deposited data

Results flagged for a closer look

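Nuclei outside the cardiomyocyte gate also held 5 or more Ccna2 UMIs, a signal in data that the comparisons do not use: 47 nuclei. The library labelled nTg female 1 had 7 of them, that labelled Tg female 2 had 24, those labelled Tg male 1 and Tg male 2 had 12 and 4, and that labelled Tg female 1 had 0. Of the 47, 8 had under 2500 UMIs, 28 had 1 to 2% of UMIs from Ttn, Ryr2 and Trdn and 11 had under 1%, and 18 were called doublets. Gm10800 had a UMI in 40 of them (85.1%) and Csmd3 in 29 (61.7%), as against 1.30% and 1.32% of 10742 nuclei under 0.5% gate genes with 0 Ccna2 UMIs. Among the 11 with under 1%, 7 held Gm10800 (63.6%), at a median of 8 Ccna2 UMIs.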

How the results depend on the processing

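The 8 named rises (6 genes of the Gm10800 family, Csmd3 and Gm33838) kept their call under every alternative that could test them, while the 11 smaller falls each lost it under at least 1. The rises passed the filter on low counts through the Ccna2-high class, so keeping the call was close to fixed in advance. The contrast with the falls is therefore a description only. Of the rises, the 5% gate could test Gm10800 and Gm10801 alone. The comparison of Ccna2-high with Ccna2-zero nuclei called 28 genes, 14 each way. It called 13 (9 higher, 4 lower) against depth-matched nuclei, 17 (6 lower) with a 3% gate, added after seeing the data, 2 (2 higher, 0 lower) with a 5% gate, at which 5, 0, 2 and 3 Ccna2-high nuclei were left, 15 (4 lower) with DESeq2, 86 (65 lower) with no filter on low counts, and 12 (1 lower) with no replicate block. Leaving out each replicate gave 25 to 34 genes, 14 to 16 higher and 9 to 20 lower, the 9 without the library labelled Tg male 1. Of 375 results of named genes under alternatives 297 kept direction and call, 77 lost the call, and 1 reversed, Rgs6 at 0.25 with the 5% gate.

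The comparison by amount of Ccna2 called 7 genes (6 higher, 1 lower), 4 without doublets (3 higher), 2 with DESeq2 (2 higher, 0 lower), 16 with no filter (8 lower), and 0 with no replicate block (0 higher, 0 lower). Leaving out each replicate gave 2 to 10 genes, 2 to 6 higher and 0 to 5 lower. The difference in S or G2M share was 1.79 points without thinning, 1.81 with at least 1 UMI and 0.577 against depth-matched nuclei, and -4.40 to -1.20 without each replicate. The cluster with most Ccna2-high nuclei held 58.5 points more of them, 57.1 to 59.1 without each replicate, and -4.86 once clustered without the called genes, by construction. With a 5% gate the Ccna2-high share was 0% of 8 nuclei in Tg female 2 and 3.70% of 54 in Tg male 1. The causes of the other changes were not tested. Cell-cycle genes with under 1 CPM could not be resolved at this depth.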
